A study of Mus musculus with 5 samples.

Results

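The genes of MHC class II antigen presentation were followed across the epithelium of the mouse ileum: H2-Aa, H2-Ab1, H2-Eb1, Cd74, Ciita, H2-DMa and H2-DMb1, which are 7 of the 27998 genes in the counted gene table. They were chosen by symbol, because genes of this group led 1 enterocyte cluster in earlier work on these same cells. Levels by cell class, by cluster and by single cell were therefore in view when the genes were chosen, and they are given below as description without a test. The contrast between surgery groups was not used in the choice, and it was tested. The material was droplet single-cell RNA sequencing of C57BL/6 mice aged 8 to 12 weeks, with 3 libraries after sham surgery and 2 libraries after small bowel resection (SBR), in which a stretch of the small intestine is cut out. No transgene, drug or other allele is named for any group, and the time between surgery and sampling is not given in the sources used here. The labels do not say whether each library came from a separate mouse, so p-values measure the spread between libraries, which may be technical.

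MHC class II molecules are pairs of an alpha and a beta chain that carry peptides to the cell surface, where CD4+ T cells read them. In C57BL/6 mice the I-A molecule is made from H2-Aa (alpha chain) and H2-Ab1 (beta chain), and H2-Eb1 encodes the beta chain of I-E, whose alpha chain gene is disrupted in this strain. Cd74, the invariant chain, blocks the peptide groove and guides the new molecule to endosomes, and H2-DMa and H2-DMb1 form the H2-M chaperone that removes the last fragment of Cd74 and lets other peptides bind. Ciita is the transactivator that switches the whole set on. Dendritic cells, macrophages and B cells carry these genes all the time, and the intestinal epithelium is one of the tissues outside the immune system known to carry them too, under the influence of interferon-gamma and the gut microbiota.

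All 7 symbols matched 1 row each in the counted gene table, and their Ensembl identifiers matched the GENCODE M21 annotation of GRCm38, the build named in the submitters' processing notes. Of the 7, 5 lie close together in the major histocompatibility region of chromosome 17. These are H2-DMa (ENSMUSG00000037649, chr17:34119541-34139101, plus strand), H2-DMb1 (ENSMUSG00000079547, chr17:34153072-34160230, plus strand), H2-Ab1 (ENSMUSG00000073421, chr17:34257689-34269419, plus strand), H2-Aa (ENSMUSG00000036594, chr17:34282744-34287823, minus strand) and H2-Eb1 (ENSMUSG00000060586, chr17:34305867-34316674, plus strand). Ciita (ENSMUSG00000022504) lies on chromosome 16 (chr16:10480059-10528418, plus strand) and Cd74 (ENSMUSG00000024610) on another chromosome. H2-DMb1 has a close paralog, H2-DMb2, so its counts are uncertain where reads fit both.

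Genes switched on by Ciita are known for a shared promoter element in which an X box, bound by the RFX complex, stands a fixed distance before a Y box, bound by NF-Y. The following stretches, read 5′ to 3′ on each gene's own strand from the RefSeq promoter table (GRCm38.p6), show that element in H2-Aa and H2-Eb1. Capitals mark the X box (letters CTNGNAACT) and the Y box (letters ATTGG).
H2-Aa: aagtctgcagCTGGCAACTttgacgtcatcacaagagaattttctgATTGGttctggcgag
H2-Eb1: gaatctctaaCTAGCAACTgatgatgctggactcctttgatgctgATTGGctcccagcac
The stretches lie at chr17:34287857-34287917 (minus strand) and chr17:34305763-34305822 (plus strand). The X box starts 84 and 94 bases before the start of H2-Aa and H2-Eb1, where RefSeq and GENCODE have the same start, and 27 and 26 bases separate it from the Y box. H2-DMb1 held the element too, 97 bases before its RefSeq start and with 27 bases between the boxes. Its GENCODE model starts farther upstream and takes the element into the first exon, so its letters are not shown. The motif letters were picked with these promoters in view. Over all 32851 promoters of 300 bases (250 before the start to 50 after it), searched on both strands, 1347 (4.1%) held the X box letters and 12289 (37.4%) the Y box letters. The X box followed by the Y box with 0 to 30 bases between them stood in 36 (0.11%). The 2 windows listed for H2-DMa held no X box letters. H2-Ab1, Ciita and Cd74 have no entry in that table.

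The 5 libraries held 1402 to 7233 cells and 11749028 to 41281731 unique molecular identifiers (UMIs, each standing for 1 captured RNA molecule), at a median of 4541 to 6239.5 UMIs per cell, and 18235 of 19404 cells were kept. Median mitochondrial shares ran from 7.24% in sham 3 to 13.7% in sham 1. Cells were sorted into classes by marker genes, and a name such as enterocyte-like says only that those markers lead. In enterocyte-like cells all 12 enterocyte markers were detected in every library, and Fabp6, the ileal bile acid binding protein, was present at 3732 to 47386 CPM (counts scaled to a common total, defined below) in every library and at every position along the villus score used below. The libraries stood apart from each other. In the clustering used, most enterocyte-like cells of sham 1 (664 of 703) fell in a cluster led by Gm26870 and Epha2, those of sham 2 (1644 of 1966) in one led by Cd74 and Saa1, and those of sham 3 (1177 of 1337) in one led by Ccl20 and Duoxa2. Resection 1 filled mainly clusters led by Sgk1, by Fgf15 and by Apoa4 (913, 683 and 678 cells), and resection 2 clusters led by Ada and by Rcan1 (1884 and 1378 cells). By the overlap of clusters the libraries were put in 2 sets that cut across surgery, sham 1 with resection 1 and the other libraries together. The first set rests on a small difference: the overlap was 4.94% between sham 1 and resection 1, against 2.92 to 3.82% for pairs across the sets and 10.8 to 16.6% for pairs inside the other set. With genes scaled inside each library, sham 1 overlapped most with sham 3 (85.8%) and least with resection 1 (49.5%), so the sets depend on the clustering. What separates the sets is not given in the sources used here. Between 6 and 47 cell barcodes were shared by a pair of libraries.

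In enterocyte-like cells, the absorptive cells that make up most of the sample, the class II genes differed many-fold between libraries that had the same surgery. Cd74 was at 414, 403 and 60.01 CPM in sham 1, 2 and 3 and at 145 and 225 CPM in resection 1 and 2. Sham 1 and sham 2 were high, sham 3 was the lowest of the 5, and both resection libraries lay inside the range of the shams. CPM scales the gene's summed UMIs by all UMIs in the cells of that class and library. Because the assay counts 3' ends, levels are compared between libraries and classes for each gene and not between genes.

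The chains of the class II molecules followed the same order. H2-Ab1 was at 242, 175 and 32.0 CPM in the shams and at 93.3 and 107 CPM after resection. H2-Aa was at 71.6, 59.4 and 4.71 CPM in the shams and at 20.7 and 25.7 CPM after resection. H2-Eb1 was at 78.0, 71.6 and 9.53 CPM and at 28.9 and 37.9 CPM. For each of the 3 chains the order was sham 1, sham 2, resection 2, resection 1, sham 3, and the groups overlapped.

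The H2-M chaperone genes differed from this in part. H2-DMa was at 24.0, 22.5 and 9.53 CPM in the shams and at 9.67 and 16.7 CPM after resection, so sham 3 and resection 1 were level at the bottom. H2-DMb1 was at 23.4, 11.5 and 2.26 CPM in the shams and at 6.63 and 5.08 CPM after resection. Both subunits were highest in sham 1. H2-DMa varied far less: sham 1 was 2.51 times sham 3, against 10.4 times for H2-DMb1, 15.2 for H2-Aa, 8.18 for H2-Eb1, 7.54 for H2-Ab1 and 6.90 for Cd74.

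The transactivator itself was near the limit of detection. Ciita had 39 UMIs in all enterocyte-like cells, 7, 13 and 4 in the shams and 5 and 10 after resection, which is 1.78, 1.44 and 0.393 CPM and 0.381 and 0.513 CPM. With so few molecules, single Ciita values carry wide counting error. In stem-like cells no Ciita UMI was counted in any library, which allows up to 2.27 to 24.4 CPM depending on the library (3 UMIs).

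Summed over the 7 genes, enterocyte-like cells had 854, 745 and 118 CPM in sham 1, 2 and 3 and 305 and 418 CPM in resection 1 and 2. Sham 1 was 7.21 times and sham 2 was 6.29 times sham 3. Sham 3 was the lowest library in 33 of 36 combinations of the 6 genes other than Ciita with the epithelial classes. Many of these lie near the floor: in sham 3 each gene had 0 to 3 UMIs in Paneth-like and 1 to 19 in goblet-like cells. Sham 1 had no stem-like cells to compare. The SD of log2(CPM + 10) over the 5 libraries was 1.05 for Cd74, 0.96 for H2-Aa, 0.93 for H2-Ab1 and 0.86 for H2-Eb1. The median SD was 0.27 over the 4420 genes with a mean of at least 20 CPM, among which these ranked at percentiles 98.5 to 99.4. H2-DMb1 (0.50), H2-DMa (0.38) and Ciita (0.08) lay under that mean and were not ranked. The cluster led by class II genes here was 93.9% sham 2 cells. A choice by such a cluster can favour genes that differ between libraries, so the ranks are description only. The order of the 2 highest libraries depended on scaling. With totals scaled by edgeR's TMM factors the sums were 725, 828, 128, 281 and 447 CPM, sham 2 was highest for 5 of the 7 genes, and resection 1 rather than sham 3 was lowest for H2-DMa. Sham 3 was then the lowest in 23 of the 27 tested combinations of gene (without Ciita) and class, against 24 with plain totals. Both counts take in Paneth-like and goblet-like cells.

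**Figure D1:**
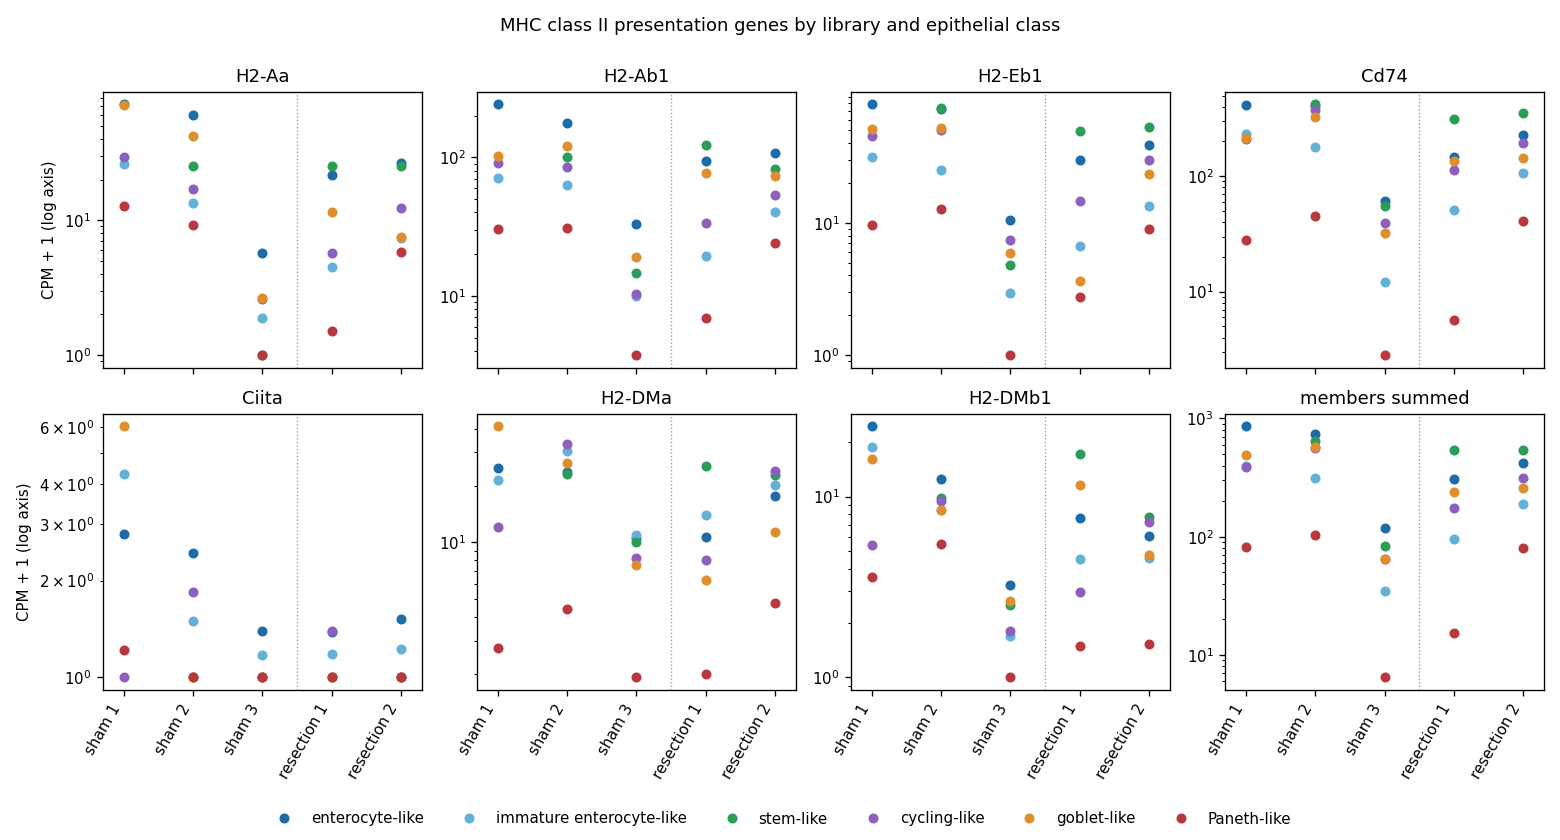
Each panel shows 1 gene, or the sum of the 7, as CPM + 1 on a log axis for the 5 libraries, with 1 point per epithelial class and a dotted line between sham and resection libraries. For Cd74 in enterocyte-like cells the points stand at 414, 403 and 60.01 CPM in the shams and 145 and 225 CPM after resection, and sham 3 sits at or near the bottom of most panels.

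Immune cells also carry these genes, so their markers were followed in the same cells. In enterocyte-like cells the 6 B or plasma cell markers summed to 0.0762 to 1.27 CPM per library with 2 to 5 of the 6 at 0, and the 10 myeloid or dendritic cell markers to 2.74 to 6.74 CPM with 3 to 7 at 0. The 3 pan-leukocyte markers summed to 0.589 to 8.41 CPM, and 1 of them was at 0 in sham 3. T cell markers, of which none was at 0, summed to 88.4, 128 and 58.6 CPM in the shams and 30.7 and 104 CPM after resection. They were lowest in resection 1 and highest in sham 2, whereas the class II sum was lowest in sham 3 and, on plain totals, highest in sham 1 (with TMM scaling, sham 2). Their part in the class II levels was not tested. Only 1 enterocyte-like cell, in resection 2, held UMIs of 2 or more B cell or myeloid markers. Without the cells that held any leukocyte marker UMI, the 7 genes summed to 894, 760 and 133 CPM in the shams and 305 and 431 CPM after resection. Sham 1 was again the highest and sham 3 the lowest.

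The cluster led by class II genes was almost entirely 1 library. It held 1751 cells, 1644 (93.9%) of them from sham 2, and 4 of the 7 genes (Cd74, H2-Aa, H2-Ab1 and H2-Eb1) stood among its 10 leading genes although MHC class II genes had been left out of the clustering. It took in 83.6% of the enterocyte-like cells of sham 2. Inside it the 7 genes summed to 780 CPM in sham 2, against 575 CPM in that library's other enterocyte-like cells. The enterocyte-like cells of sham 1, of which 7 lay in this cluster, had 860 CPM outside it. H2-Ab1 alone of the 7 was also among the 10 leading genes of the main cluster of sham 1. With every gene scaled inside its own library ahead of the clustering, no enterocyte-like cluster had a class II gene among its leading genes.

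With that scaling, enterocyte-like cells fell in 8 states, 5 of them with at least 20 cells from each of the 5 libraries. Of the others, the states led by Sgk1 and by Apoa4 were mainly resection 1 cells (764 of 850 and 459 of 513). In each of these 5 states the libraries stood in the same order, sham 1, sham 2, resection 2, resection 1, sham 3, on plain totals. The state led by Fabp2, Sectm1b and Rbp2, of which Fabp2 and Rbp2 bind fatty acids and retinol, had 1436, 1246 and 195 CPM of the 7 genes in the shams and 408 and 526 CPM after resection. That was 1.30 to 1.77 times the level of all enterocyte-like cells of the same library, above it in 5 of 5 libraries.

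A state led by the interferon-stimulated genes Isg15, Ifit1 and Rsad2 was also above its library's level in 5 of 5 libraries. It had 1614, 1177 and 165 CPM in the shams and 375 and 559 CPM after resection, from 31 to 77 cells per library. The lowest was the state led by Areg, Acta1, F3 and Edn1, with 587, 336 and 41.5 CPM in the shams and 121 and 256 CPM after resection, 0.378 to 0.671 times its library's level. The Fabp2 state exceeded the Areg state 2.45, 3.70 and 4.70 times in the shams and 3.37 and 2.06 times after resection. Between sham 3 and the other shams the gap was wider than that between states: the highest state of sham 3 (195 CPM) lay below the lowest state of sham 1 and of sham 2. This did not hold for every pair of libraries. The highest state of resection 1 (657 CPM) lay above the lowest of sham 1 (587 CPM) and of sham 2 (336 CPM).

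Resection 1 held a pair of states with a large gap inside 1 library. Its 459 cells in the state led by Apoa4, Lct and Fabp1, lipid and lactose handling genes, had 657 CPM of the 7 genes. Its 764 cells in the state led by Sgk1 and Pck1 had 216 CPM. In resection 2 the Apoa4 state (49 cells) had 532 CPM, and in sham 3 the Sgk1 state (39 cells) had 110 CPM.

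**Figure D2:**
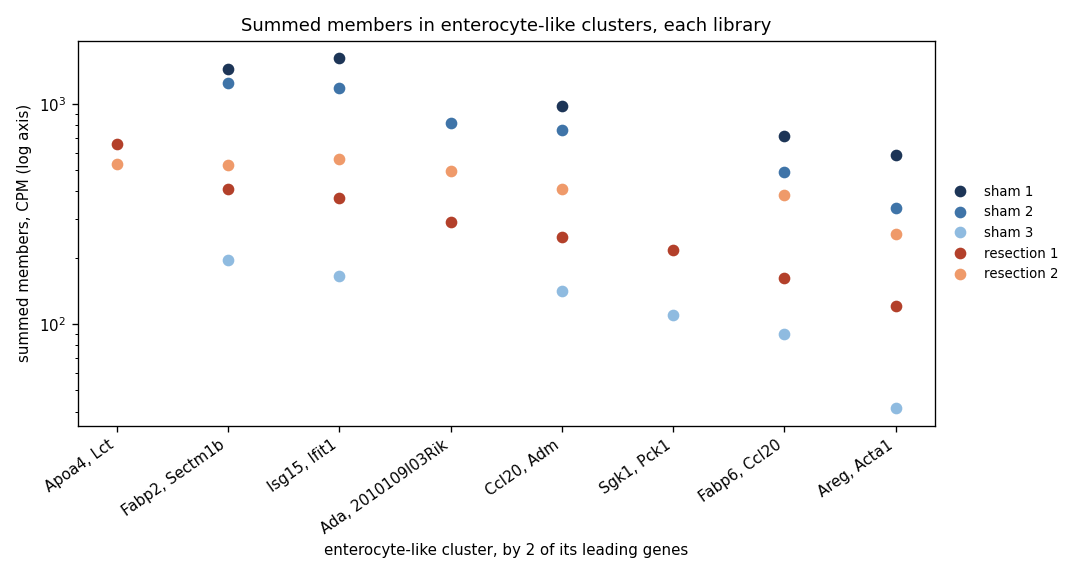
Points give the summed CPM of the 7 genes (log axis) in each enterocyte-like state, named by 2 leading genes, for each library with at least 20 cells in that state. In the 5 states with points of all libraries the order from top to bottom is sham 1, sham 2, resection 2, resection 1, sham 3, and the Areg state runs from 587 down to 41.5 CPM.

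Across the epithelial classes, class II UMIs were counted from the crypt to the villus, with the lowest level in Paneth-like cells. Summed over the 7 genes, the enterocyte-like level was above that of immature enterocyte-like cells in 5 of 5 libraries, by 2.15, 2.38 and 3.52 times in the shams and 3.25 and 2.24 times after resection. It was 1.33 to 2.22 times the level of cycling-like cells and 1.27 to 1.84 times that of goblet-like cells, the mucus-secreting class. Among the epithelial classes enterocyte-like cells were the highest in each sham library, and stem-like cells, the crypt base progenitors, in both resection libraries. In resection 1 this depended on the clustering: with genes scaled inside each library its stem-like cells had 260 CPM and its enterocyte-like cells 306 CPM.

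Stem-like cells of sham 2 had 646 CPM of the 7 genes and those of sham 3 had 81.8 CPM, while sham 1 had no stem-like cell. Resection 1 had 545 CPM and resection 2 had 536 CPM. The value of resection 1 comes from 23 cells and 67 UMIs. With genes scaled inside each library, stem-like cells had 597, 673 and 91.7 CPM in the shams, sham 1 now with 22 cells, and 260 CPM (97 cells) and 558 CPM after resection. Sham 3 was the lowest in both clusterings, and both resection values lay inside the range of the shams.

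Enterocyte marker RNA was followed in each class as a measure of RNA from outside the cell. In stem-like cells these markers stood at 10.2, 6.42, 11.7 and 11.0% of the enterocyte-like level in sham 2, sham 3, resection 1 and resection 2, and the class II genes at 86.8, 69.0, 179 and 128%. In cycling-like cells the markers stood at 8.05 to 14.8% and the class II genes at 45.1 to 75.4%. The class II level was thus far above that of the markers in both crypt classes in each library that had them. Goblet-like cells differed from this: their enterocyte markers stood at 52.3, 55.6, 39.2, 60.9 and 64.9% and the class II genes at 57.7, 76.8, 54.2, 78.6 and 61.8%, in the order sham 1, 2 and 3 and resection 1 and 2. How much of the goblet-like level is free RNA was not tested.

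Paneth-like cells, the antimicrobial cells of the crypt base, had 81.6, 102 and 5.48 CPM in the shams and 14.4 and 80.0 CPM after resection. This was 9.56, 13.7, 4.63, 4.72 and 19.1% of the enterocyte-like level of the same libraries. Enterocyte marker genes, which Paneth cells should lack, stood at 10.4, 11.6, 6.86, 5.53 and 18.5% in the same Paneth-like cells. The class II genes in Paneth-like cells were thus at about the level of other enterocyte RNA found there, and they are not read as expression in that class.

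The mix of class II RNAs differed between classes. The ratio of Cd74 to H2-Ab1 UMIs was 1.71, 2.30 and 1.87 in enterocyte-like cells of the shams and 1.56 and 2.10 after resection. In cycling-like cells it was 2.29, 4.42, 4.13, 3.42 and 3.67 in the same order of libraries, higher in 5 of 5. In stem-like cells the ratio was higher in 4 of 4 libraries, at 4.24 for sham 2, 3.94 for sham 3, 2.53 for resection 1 and 4.35 for resection 2. The exact 95% intervals, which cover counting error only, overlapped for cycling-like cells of sham 1 (1.57 to 3.39 against 1.58 to 1.86) and for stem-like cells of resection 1 (1.36 to 4.96 against 1.45 to 1.68). Paneth-like cells went the other way, at 0.920 and 1.47 in sham 1 and 2 and 0.792 and 1.74 after resection, lower than the enterocyte-like ratio in 4 of the 4 libraries with enough UMIs. After resection these rest on few UMIs, 19 of Cd74 and 24 of H2-Ab1 in resection 1 and 75 and 43 in resection 2. Counting error is wide there, and a difference in mix is read only in sham 1 and 2. The Paneth-like level was about that of other enterocyte RNA found there. The source of these UMIs was not tested.

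The H2-M subunit H2-DMa took a larger share where the other genes were low. Its ratio to Cd74 in enterocyte-like cells was 0.0578, 0.0559 and 0.159 in the shams and 0.0665 and 0.0740 after resection, highest in sham 3. In immature enterocyte-like cells the ratio was 0.0883, 0.167 and 0.905 in the shams and 0.261 and 0.182 after resection. It was higher in the immature class in 5 of 5 libraries, and in sham 3 nearly as many H2-DMa UMIs (57) as Cd74 UMIs (63) were counted there. Over the 29 sums of a library and a class, Pearson's r of log levels between pairs of the 7 genes ran from 0.34 (Cd74 with Ciita) to 0.94 (H2-Ab1 with Cd74). These sums share libraries and depth, and r is given without a test.

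By a fixed measure of likeness, Pearson's r with the summed class II level over the same 29 sums, the nearest of 4688 genes were Sap30l (0.80), Wipi2 (0.76), Pcdh1 (0.76), Psmb8 (0.76) and Elf4 (0.75). Psmb8 encodes a subunit of the immunoproteasome, which cuts peptides for MHC class I.

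In single cells, class II UMIs were common but few per cell. With each cell thinned to 2000 UMIs, 61.5, 53.4 and 14.4% of enterocyte-like cells in the shams and 28.9 and 41.3% after resection held at least 1 UMI of any of the 7 genes. No cell was shallower than that depth. Without thinning the shares were 82.2, 69.2, 30.8, 45.5 and 58.5% at median depths of 4863, 4030, 5934, 5054 and 4138 UMIs.

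T cell-like droplets were used as the type that should lack these genes, and they did not lack them. Their thinned shares were 60, 53.7 and 12.5% in the shams and 25.8 and 39.7% after resection, from 30, 108, 40, 31 and 239 droplets at median depths of 5619.5, 4001.5, 6115.5, 6600 and 4930 UMIs. Unthinned, they were 80.0, 73.1, 27.5, 48.4 and 59.0%. These droplets also held enterocyte marker RNA at 73.1, 59.6, 66.6, 65.2 and 73.9% of the enterocyte-like level, and class II UMIs at 96.1, 90.1, 86.5, 50.2 and 83.1%, so they are not free of epithelial RNA. Some of their class II UMIs lay in droplets with UMIs of 2 or more B cell or myeloid markers. These were 47 of 150 in sham 1, 5 of 335 in sham 2 and 27 of 504 in resection 2, with none in sham 3 or resection 1. In Paneth-like cells the thinned shares were 16.9, 14.7, 0.855, 2.26 and 16.4%, at median depths of 16418, 10252, 8372, 19269 and 5864 UMIs. The share of enterocyte-like cells with a class II UMI was thus close to that of T cell-like droplets and above that of Paneth-like cells in 5 of 5 libraries, and how much of it is free RNA was not tested.

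A minority of cells held most of the UMIs. Cells with at least 3 class II UMIs at the thinned depth made up 29.0, 20.96 and 2.77% of enterocyte-like cells in the shams and 7.42 and 10.9% after resection. They carried 76.2, 72.7, 53.2, 56.6 and 56.8% of the class II UMIs. The variance of the count per cell was 2.97 to 4.59 times its mean. Just inside that cutoff, 84, 137, 16, 68 and 165 cells had exactly 3 UMIs, and just outside it 70, 222, 26, 142 and 336 had exactly 2.

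The genes met in the same cells. H2-Aa was found in 22.7, 22.5 and 5.66% of Cd74-positive enterocyte-like cells of the shams and in 3.59, 3.85 and 0.812% of Cd74-negative ones. After resection it was found in 11.6 and 10.6% against 1.12 and 2.59%. These shares are description only, since the genes were chosen for leading a cluster together and the cells of a library are not replicates. H2-DMa was less tied to Cd74, at 1.17 to 2.00 times the share in Cd74-negative cells, against 4.07 to 10.4 times for H2-Aa.

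Along a villus score, class II genes were higher toward its tip end. Enterocyte-like cells of each library were cut in 5 equal groups by the share of villus tip gene UMIs among tip plus lower villus gene UMIs, which is a range and not a type. The lower villus genes Reg3b and Reg3g, at means of 54507 and 22337 CPM, far outweigh tip genes such as Krt20 (1092 CPM) and Ada (52.7 CPM). The score thus ranks cells largely by Reg3b and Reg3g. From the first to the last group the 7 genes summed to 667 and 1156 CPM in sham 1, 589 and 971 CPM in sham 2, 102 and 206 CPM in sham 3, 183 and 342 CPM in resection 1 and 312 and 472 CPM in resection 2. The last group was 1.51 to 2.03 times the first. The highest value lay in the last group in each sham library and in the group before it in both resection libraries. In the state led by Ada, a tip gene, the 7 genes stood at only 0.944 to 1.22 times their library's level. They were above that level in 2 of the 3 libraries with enough cells there.

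H2-Aa had the steepest gradient of the 3 chains in 3 of 5 libraries, from 33.5 to 93.6 CPM in sham 2, from 7.32 to 28.3 CPM in resection 1 and from 14.4 to 38.5 CPM in resection 2. It was highest in the last group in 5 of 5 libraries. H2-DMa had no common direction: it went from 21.7 to 24.2, from 26.7 to 29.1 and from 8.60 to 14.97 CPM in the shams, from 7.32 to 8.27 CPM in resection 1 and from 18.3 to 11.6 CPM in resection 2. The median depth per cell was lower in the last group than in the first in 4 of 5 libraries (3167 against 4472.5 UMIs in sham 2), and its part in these values was not tested.

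**Figure D3:**
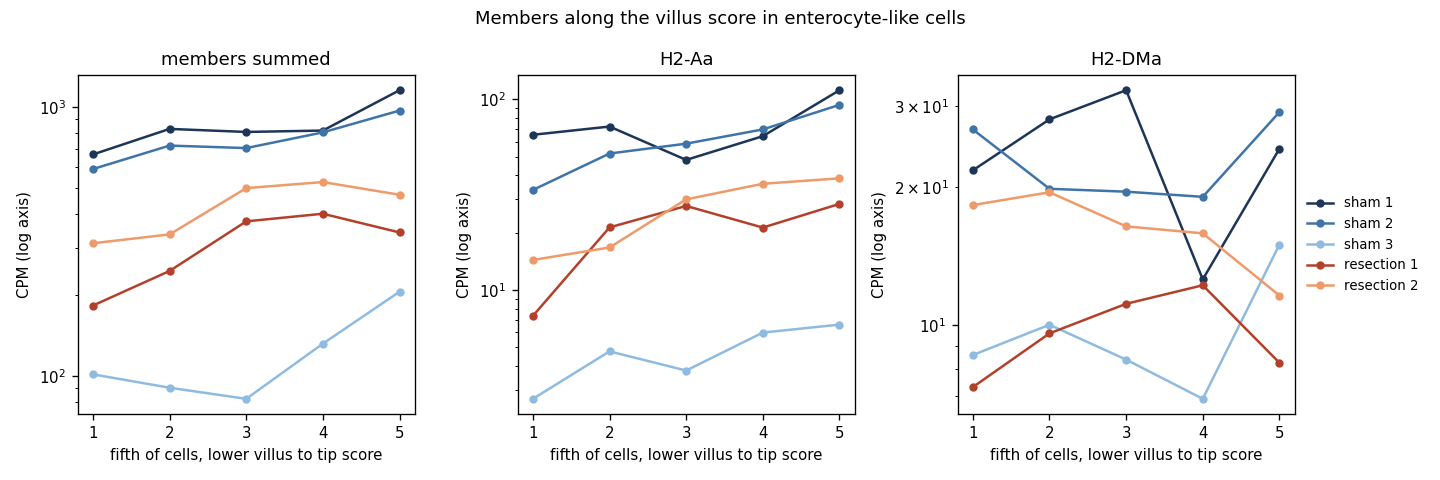
Lines show CPM (log axes) of the 7 genes summed, of H2-Aa and of H2-DMa across 5 equal groups of enterocyte-like cells ordered by villus score, 1 line per library. The sum goes from 667 to 1156 CPM in sham 1 and from 102 to 206 CPM in sham 3, while the lines of H2-DMa cross.

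Cells with at least 3 class II UMIs were set beside cells with 0 in the same library to see which other genes went with them. There were 204 and 271 such cells in sham 1, 412 and 917 in sham 2, 37 and 1144 in sham 3, 175 and 1677 in resection 1 and 426 and 2296 in resection 2. Their median depths were close, apart from sham 3 (4903 against 6028.5 UMIs). Of 4434 genes at 20 CPM or more, 380 (8.57%) were higher in the class II-high cells of all 5 libraries and 580 (13.1%) lower in all 5.

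As the median over libraries of the log2 ratio of CPM + 10, Leap2, an antimicrobial peptide that also blocks the ghrelin receptor, was the highest at 0.89, with Sectm1b at 0.85, Lct (lactase) at 0.82, Dnase1 at 0.77, Rbp2 (retinol binding) at 0.70 and Apoa4 (chylomicron apolipoprotein) at 0.66. Smpdl3b (0.65), Psmb8 (0.63), Fabp2 (0.61) and Aqp1 (0.60) followed. In sham 2, for example, Leap2 stood at 209 CPM in class II-high cells and at 121 CPM in class II-free cells, and in resection 1 at 862 and 435 CPM.

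The lowest were Ms4a18 (-1.04), Gsta1 (-0.93), Edn1 (-0.91), F3 (-0.82), Krt19 (-0.81), Tstd1 (-0.73), Gpx1 (-0.73), Rpl3 (-0.71), Fgfbp1 (-0.71) and Pycard (-0.70). Krt19, a keratin of the lower villus and crypt, stood at 1095 CPM in class II-high and 1925 CPM in class II-free cells of sham 2. Edn1 and F3 also led the Areg state, in which class II levels were lowest. Of the 12 enterocyte markers 8 were higher in all 5 libraries and none lower. Of the 4 immature enterocyte markers at 20 CPM 3 were lower in all 5 and none higher. Of the 3 villus tip genes at 20 CPM 1 was higher in all 5 (Krt20, 0.14) and none lower. Klf4 stood at a median of 0.35 and Ada at -0.42.

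The genes of MHC class I presentation, which show peptides from inside the cell to CD8+ T cells, went with class II. Of the 9 at 20 CPM or more, 7 were higher in class II-high cells of all 5 libraries and 1 was lower, with a median log2 ratio of 0.33 against -0.02 over all genes. B2m, the class I light chain, was at 0.45, the heavy chains H2-K1 and H2-D1 at 0.44 and 0.31, the peptide transporter subunit Tap1 at 0.39, its partner Tapbp at 0.33 and the immunoproteasome subunits Psmb8 and Psmb9 at 0.63 and 0.29. Erap1, a peptide-trimming enzyme, was the one that was lower (-0.33), and Psmb10 (0.21) was not on the same side in every library. B2m and H2-K1 were also higher in the last villus group than in the first in every library. B2m went from 724 to 1488 CPM in sham 1 and from 1635 to 3299 CPM in resection 2, and H2-K1 from 1349 to 2605 and from 728 to 1589 CPM. The part of villus position and cell maturity in the class I values was not tested.

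Other parts of the pathway moved less. None of the 5 endosomal proteases and reductases at 20 CPM (such as Ctss, which cleaves Cd74) was on the same side in all 5 libraries, nor was Nfyc, the only subunit at that level of the RFX, CREB and NF-Y complexes that Ciita works with. Of 2 type I interferon genes at that level 1 was higher in all 5 libraries (Ifit1, with a median log2 ratio of 0.30). No B cell, myeloid or pan-leukocyte marker reached 20 CPM in these cells. T cell markers summed to 82.8, 171, 55.1, 31.4 and 87.1 CPM in class II-high cells and to 98.1, 113, 59.6, 30.2 and 97.7 CPM in class II-free cells.

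**Figure D4:**
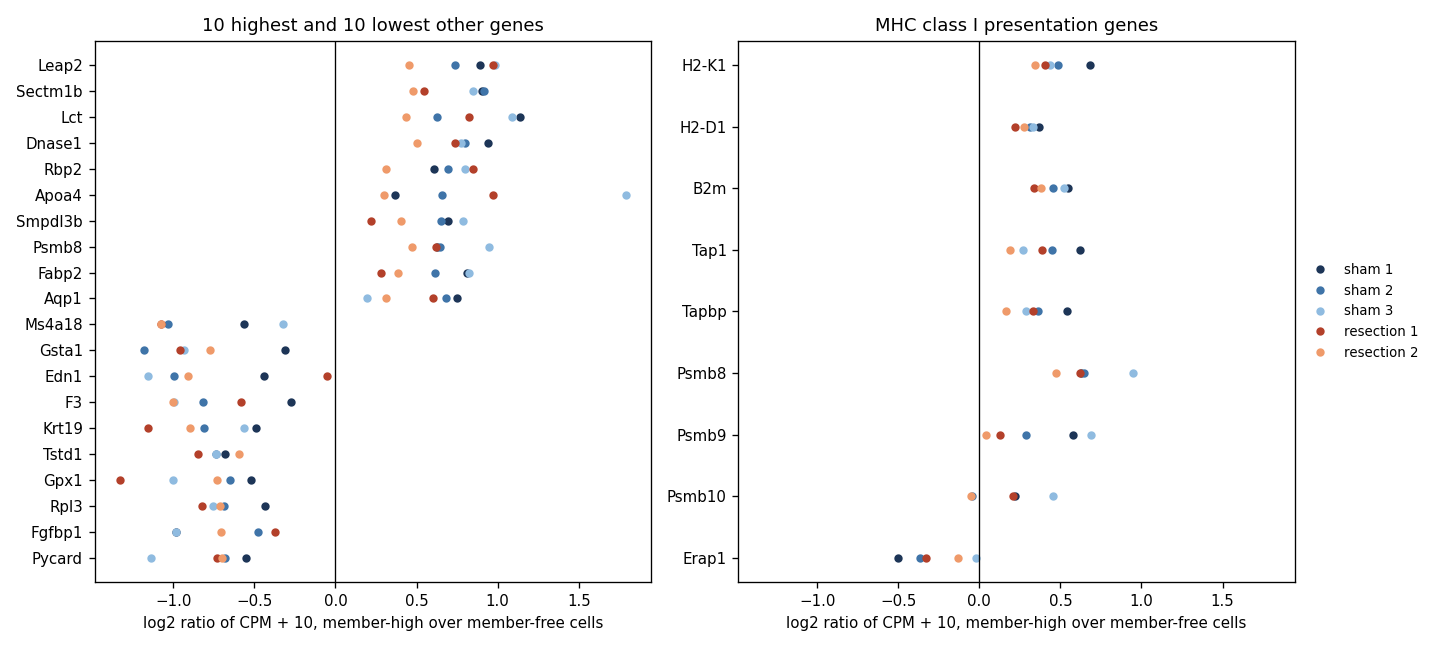
Points give, per library, the log2 ratio of CPM + 10 in enterocyte-like cells with at least 3 class II UMIs over cells with none, for the 10 highest and 10 lowest other genes (left) and the class I presentation genes at 20 CPM or more (right). Leap2 has the highest median (0.89) and Ms4a18 the lowest (-1.04), and 7 of the 9 class I genes lie above 0 in every library.

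The surgery comparison set ileal epithelium after resection against that after sham surgery. In enterocyte-like cells the fitted values of all 7 genes were lower after resection, and none passed the test. The log2 fold changes (edgeR, resection over sham, ± SE, n = 3 and 2 libraries) were -1.29 ± 0.71 for Ciita, -0.99 ± 0.70 for H2-DMb1, -0.91 ± 0.86 for H2-Aa, -0.63 ± 0.72 for H2-Eb1, -0.62 ± 0.72 for Cd74, -0.53 ± 0.66 for H2-Ab1 and -0.47 ± 0.44 for H2-DMa. Each had an adjusted p of 0.9996 from edgeR's quasi-likelihood test with Benjamini-Hochberg adjustment over 10222 genes. Their unadjusted p-values ran from 0.108 to 0.450.

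In this class edgeR called 0 of 10222 genes (0%) and DESeq2 69 (0.675%), with none of the 7 among them. At an unadjusted p under 0.05, 531 genes (5.19%) and none of the 7 passed in edgeR. The values of the 2 resection libraries were both above or both below all shams for 1929 genes (18.9%) and for none of the 7. The median log2 fold change of the 7 was -0.63, against -0.02 over all genes tested. On the plain CPM scale the 7 genes summed to a sham mean of 572 ± 397 (SD, n = 3) and a resection mean of 362 ± 80.0 (SD, n = 2), so the spread among the shams exceeded the difference between the groups.

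Every library moved that median by more than 1.5 times. It was -1.12 without sham 3 and -1.06 without resection 2. It was -0.41 without sham 1, -0.35 without resection 1 and -0.23 without sham 2. Without sham 3, 6 of the 7 had an unadjusted edgeR p under 0.05, as had 370 of all 10177 genes tested, and no gene was called. Inside the sets the difference was taken as a log2 ratio of TMM-scaled CPM with the pseudocount stated below, not as an edgeR fit. The pseudocount shrinks the ratios of low genes, and Ciita stood at -0.15 and -0.06. The median difference was -1.06 in the set of sham 1 and resection 1. It was -0.09 in the set of sham 2, sham 3 and resection 2. The shams of that set were averaged as CPM, so the higher sham weighs more. An average of logs was not tried, and the sign of the -0.09 may depend on this choice. By this measure the lower values after resection were not seen at that size in the set that holds the low sham library.

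The other classes gave the same picture. The median log2 fold change was -0.84 over the 6 genes tested in immature enterocyte-like cells (edgeR calls over all genes: 0 of 10080, 0%; DESeq2 0.0595%), -0.41 over 6 in cycling-like cells (0 of 9651, 0%; DESeq2 0.0207%) and -1.08 over 5 in goblet-like cells (4 of 5940, 0.0673%; DESeq2 0.118%). It was -1.01 over 4 in Paneth-like cells (4 of 6182, 0.0647%; DESeq2 0.0809%) and -0.62 over 7 in all epithelial cells together (0 of 11723, 0%; DESeq2 0.29%). None of the 7 was called by either tool in any of them. At an unadjusted p under 0.05 edgeR passed 1 of 5 in goblet-like cells and 1 of 4 in Paneth-like cells, where 4.48 and 2.02% of all genes passed. It passed none in immature enterocyte-like (1.55% of all genes), cycling-like (1.32%) and all epithelial cells (2.82%). Both were H2-Aa, at -2.01 ± 0.87 in goblet-like cells and -2.07 ± 0.70 in Paneth-like cells, with edgeR adjusted p-values of 0.999 and 0.9997. The Paneth-like value rests on 54, 24 and 0 UMIs in the shams and 2 and 9 after resection, which are not read as expression in that class. H2-Aa in goblet-like cells had 70.4, 41.2 and 1.65 CPM in the shams and 10.5 and 6.54 CPM after resection, and the groups overlapped. H2-DMb1 in cycling-like cells was the one value above 0 (0.09 ± 0.87).

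In no class were the 2 resection values of any of the 7 both above or both below all shams. Of all genes, 11.2% were in immature enterocyte-like, 10.6% in cycling-like, 19.6% in goblet-like, 13.5% in Paneth-like and 14.4% in all epithelial cells. Inside the set of sham 2, sham 3 and resection 2 the medians of immature enterocyte-like, cycling-like, goblet-like and Paneth-like cells were -0.06, 0.15, -0.33 and 0.01. Inside that of sham 1 and resection 1 they were -1.23, -0.97, -1.63 and -1.15. All medians inside the sets are the log2 ratios described above and not edgeR fits. The sign of the median turned in cycling-like cells without sham 2 (0.41) or without resection 1 (0.08), and in goblet-like cells without sham 2 (0.49). Inside the set of sham 2, sham 3 and resection 2 it was also above 0 in all epithelial cells together (0.0027).

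**Figure D5:**
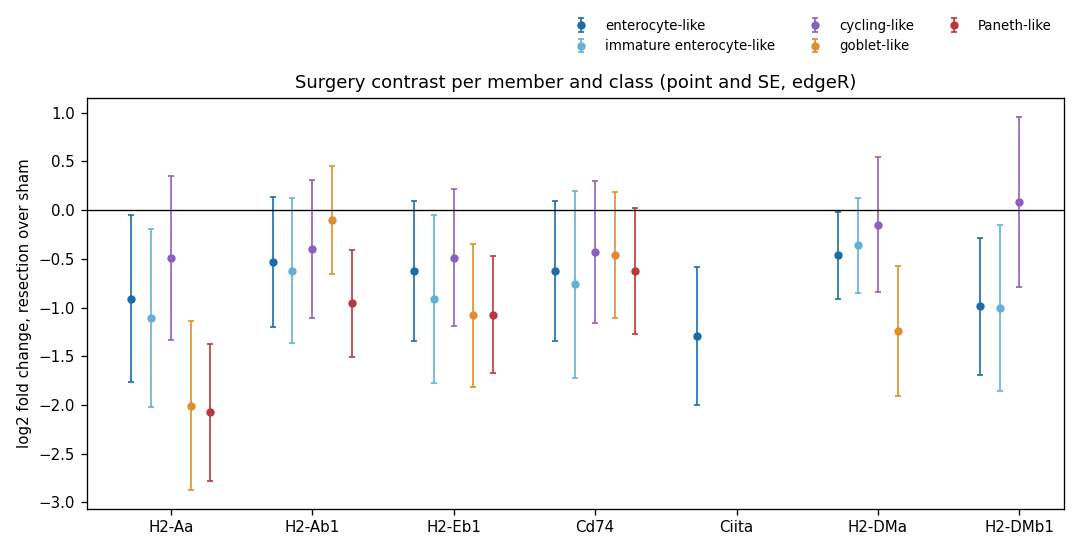
Points are edgeR log2 fold changes, resection over sham, for each of the 7 genes in each class where it was tested, with bars of 1 SE (3 sham and 2 resection libraries). Points other than H2-DMb1 in cycling-like cells (0.09) lie below 0, down to -2.07 for H2-Aa in Paneth-like cells, and no value passed the adjusted threshold.

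The rest of the pathway was taken from lists of related genes. In enterocyte-like cells none of the 4 other class II genes in the table (H2-DMb2, H2-Oa, H2-Ob and H2-Eb2) had enough counts to be tested, with 2 UMIs or fewer in any library. The H2-O genes, whose product restrains H2-M in B cells, had at most 1 UMI per library. Of the 7 subunits of the RFX, CREB and NF-Y complexes all were tested and none called, with a median log2 fold change of -0.24. Nfyb had 15.8, 13.4 and 11.7 CPM in the shams and 9.83 and 8.47 CPM after resection, at -0.59 ± 0.23 (edgeR adjusted p = 0.893). Both of its resection values were below all shams, as were those of Nfya, in a comparison where this held for 8.43% of all genes.

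The 6 endosomal processing genes were tested and none called, with a median of 0.22. Ctsl (cathepsin L) had 12.2, 15.7 and 16.5 CPM in the shams and 32.2 and 18.9 CPM after resection, at 0.70 ± 0.31 (edgeR adjusted p = 0.991). Of 6 costimulation genes 1 could be tested. This was Icosl, the ligand of the T cell receptor ICOS, with 4.84, 2.65 and 6.38 CPM in the shams and 2.06 and 1.39 CPM after resection. Its log2 fold change was -1.48 ± 0.45, with an edgeR adjusted p of 0.786 (0.0117 unadjusted). Cd80 and Cd86, the main costimulators of dendritic cells, had 0 UMIs in enterocyte-like cells of every library, which allows up to 0.154 to 0.764 CPM depending on the library (3 UMIs, counting error only).

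Of the class I genes 10 were tested and none was called. The median was 0.03 with 5 values on either side of 0. The 10 interferon-gamma response genes tested had a median of -0.37, 9 values below 0 and none called. Sham 3, the lowest library for class II, was not low for these: Irf1, an interferon-induced transcription factor, had 85.9, 45.4 and 119 CPM in the shams and 77.5 and 85.0 CPM after resection. Cxcl10, an interferon-induced chemokine, had 19.6, 7.40 and 43.6 CPM in the shams and 4.72 and 21.2 CPM after resection. For both genes sham 3 was the highest of the 5 libraries.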

How the data were processed

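UMI counts per gene and cell, deposited by the authors as 1 raw count matrix per library with no normalization, were the only values used. Per the labels, they come from 10x Chromium 3' version 2 chemistry and Cell Ranger, whose version the labels give with a question mark. The submitters' processing notes name mm10 and GRCm38. The annotation version is not given in the sources used here.

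Cells passed with 500 genes or more and a mitochondrial share of 20% or less, and simulated doublets (2 per cell) were used to remove 0.8% of cells per 1000 (720 cells). Counts scaled to 10000 per cell, 2000 variable genes without 11 MHC class II genes, 30 principal components and 20 neighbours gave 20 Leiden clusters (leidenalg 0.10.2, resolution 1.0), 10 of them enterocyte-like, named from marker lists. The scoring rule that names clusters was chosen after the data were seen, and other rules can give other classes.

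Counts were summed per library and class where all libraries had 20 cells or more, which stem-like cells missed. Sums were tested with edgeR 4.0.16 (TMM, filterByExpr, quasi-likelihood F-test, two-sided, Benjamini-Hochberg over all genes tested, threshold 0.05) in R 4.3.3, after a test on simulated data. DESeq2 1.42.0 was an alternative. SE is the log2 fold change divided by the square root of F. CPM uses plain totals unless TMM is named. Intervals are exact (Clopper-Pearson, 95%) and cover counting error only. The pseudocount for log ratios was 10 CPM, and 3 UMIs at 2000 UMIs per cell made a cell class II-high.

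The members, lists, motif letters and alternatives were chosen with earlier results of these data known. Named genes are the 7 members, genes of the lists, the 10 highest and 10 lowest genes in class II-high cells and the 5 genes nearest in level. Of the lists, only those genes that a result turns on are named, and these were picked after their values were seen.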

Additional observations from a re-analysis of the deposited data

How the results depend on the processing

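Single values of the surgery contrast under alternatives were taken for the 7 genes in enterocyte-like cells and H2-Aa in goblet-like and Paneth-like cells. Without the differences inside the sets, 129 of 129 were below 0. Of these 129, 8 were called, 7 of them with the replicate number as a block. Over all genes of the group, that replicate block in edgeR called 5 of 7 tested members in enterocyte-like and 5 of 6 in immature enterocyte-like cells. It called 1 of 6 in cycling-like, 3 of 5 in goblet-like, 4 of 4 in Paneth-like and 4 of 7 in all epithelial cells. Over all genes, the block called 67 higher and 61 lower of 10222 in enterocyte-like cells. It called 3 and 12 of 9651 in cycling-like and 60 and 109 of 11723 in all epithelial cells. Without the block edgeR called 0 in each of these. The labels do not say that equal numbers pair libraries. Deviations of same-numbered libraries from their group means correlated at 0.539 and 0.166, with only 2 pairs. With 2 resection libraries their deviations mirror each other, so the correlations are tied and cannot show whether equal numbers pair libraries. In Paneth-like cells, leaving out 1 library at a time gave 0 to 1 called members, the 1 being H2-Aa (-3.70) without resection 2. No other alternative called a member. The ranges of medians that follow take in the differences inside the sets, which are log2 ratios of TMM-scaled CPM and not fits. Members' medians ranged from -1.14 to -0.09 in enterocyte-like, -1.59 to -0.06 in immature enterocyte-like, -1.25 to 0.41 in cycling-like, -1.71 to 0.49 in goblet-like, -2.06 to 0.01 in Paneth-like and -1.17 to 0.00 in all epithelial cells. In enterocyte-like cells edgeR adjusted p ranged from 0.0390 to 0.99998 for Cd74 and from 0.00813 to 0.99998 for H2-Aa.

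Of the other lists, 0 genes were called as reported. DESeq2 called 1 in enterocyte-like cells (Ada). Without a filter 3 were called there (Ada, Gsdmc4, Nt5e) and 1 each in immature enterocyte-like, goblet-like and Paneth-like cells. With the block 3 were called in enterocyte-like, 3 in immature enterocyte-like, 2 in goblet-like, 1 in Paneth-like and 1 in all epithelial cells. In Paneth-like cells leaving out a library gave 0 to 1 (Ada without sham 1, Cxcl10 without sham 2). The cause was not tested. Shares of enterocyte-like cells with a class II UMI rose without thinning to 82.2, 69.2, 30.8, 45.5 and 58.5%, by the construction of the alternative.

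Not fitted for want of cells in a library were the 10% mitochondrial limit in enterocyte-like, cycling-like and goblet-like cells, resolution 0.5 in cycling-like cells and cells free of leukocyte UMIs in goblet-like cells. Ciita rests on 39 UMIs in enterocyte-like cells. With 5 libraries that differ many-fold within a group, differences between groups smaller than that spread were not detectable.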

Other observations

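Ifng, the cytokine known to switch on Ciita in epithelium, was counted in T cell-like droplets with 4, 4 and 0 UMIs in sham 1, 2 and 3 and 1 and 6 UMIs in resection 1 and 2, from 30, 108, 40, 31 and 239 droplets. These droplets made up 2.34, 2.85 and 1.44% of the kept cells in the shams and 0.843 and 3.57% after resection. In sham 3 the total was 283205 UMIs in T cell-like droplets, and in sham 1 182690 UMIs. The counts are too few to set libraries apart.

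Among the other promoters with the X box and Y box letters in the stated spacing is that of Pdia3, which encodes a disulfide isomerase of the class I peptide loading complex. It was picked out after the 36 promoters were seen.

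The class I genes had other orders of libraries. H2-K1 in enterocyte-like cells was at 1765, 908 and 717 CPM in sham 1, 2 and 3 and at 1914 and 1084 CPM in resection 1 and 2, highest in resection 1. B2m was at 1021, 2291 and 1695 CPM in the shams and 1774 and 2299 CPM after resection, lowest in sham 1, the library with the highest class II level on plain totals. H2-D1 ran from 558 to 677 CPM over the 5 libraries, lowest in resection 2. Of the 3, H2-K1 was the one that was lowest in sham 3. No difference between these libraries was tested.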
